A study of Saccharomyces cerevisiae with 4 samples.

Results

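The 2 arrays described here compared, within each array, the barcode tags of yeast deletion strains from plates with and without nourseothricin (Nat) in pools that carried the wild-type CDC102 gene on a plasmid. They are the arrays titled CDC102 wild-type, 1 from plates grown at 28 degree and 1 from plates grown at 30 degree, out of 4 arrays in the series. Their 5325 named deletion strains are the features measured, of which 5317 had a value on both arrays. All pools descended from 5896 heterozygous deletion strains of Saccharomyces cerevisiae into which a natMX disruption of chromosomal CDC102 (cdc102D::natMX) had been introduced. The 2 arrays of interest held pools transformed with wild-type CDC102 on a centromere plasmid marked with URA3, and the other 2 arrays held pools with the cdc102-1 allele on the same kind of plasmid, at the same temperatures. Spores were grown for 2 days on medium lacking uracil, so that every colony kept the plasmid, either with Nat, where only haploids that carry the natMX disruption grow, or without it, where haploids with and without that disruption grow. The plates without Nat therefore held single and double mutants, and the Nat plates held double mutants. Every chromosomal CDC102 disruption was covered by the wild-type gene here, in 1 pool per temperature, with no replicate array. The descriptions of both samples name the wild-type plasmid and later call the sporulated pool cdc102-1; the titles were followed.

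CDC102 is a synonym of PSF2 (YJL072C, on chromosome X), the gene for 1 subunit of GINS, the complex that joins Cdc45 and the Mcm2-7 ring to form the replicative helicase. In the deletion collection each gene is replaced by a drug-resistance cassette flanked by an uptag and a downtag, short barcodes that identify the strain in a mixed culture. Heterozygous diploids tolerate the loss of nearly any gene, whereas haploid spores that inherit the deletion of an essential gene do not grow, and genes that lie close together on a chromosome tend to be inherited together. Selection of haploids in such pools commonly rests on a reporter that is expressed only in a haploid of 1 mating type, so genes of mating type, of spore formation and of amino acid synthesis are of interest beside replication genes.

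Every value below is the deposited log2 ratio of both dyes, averaged over the spots of a strain (or of 1 of its 2 tags) and centred on the median strain of its array, so that 0 is the median strain. On both arrays Cy5 was used for tags from plates without Nat and Cy3 for tags from Nat plates. Which of them is the numerator is not stated in the labels. Cy5 over Cy3 is likely, because the Cy5 sample is listed as source 1, and a strain with a higher ratio would then have given relatively less tag from the Nat plates. As dyes were not swapped, an effect of the dye and an effect of the plate cannot be told apart. Spot intensities were not used, so it is unknown how far each tag stood above background.

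The strain deleted for PSF2 itself lay above the median strain on both wild-type arrays, past the upper quartiles of 0.24 and 0.26. Its ratios were 0.37 at 28 degree and 0.31 at 30 degree, with tag values of 0.35 and 0.38 at 28 degree, with 0.34 and 0.27 at 30 degree. All 4 tag values were above 0 and close to each other, and the strain ranked 773 from the top by its mean. With the cdc102-1 plasmid the same strain lay at -0.14 and 0.04. These values do not settle which dye is the numerator.

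The distribution of ratios was lopsided, with a long tail of strains below the median and a short one above it. At 28 degree 608 strains lay at -1 or less and 37 at 1 or more, and at 30 degree these counts were 742 and 45. The lowest percentile of strains ended at -2.29 and -2.84 on these arrays, and the highest percentile began at 0.85 and 0.94. Strain values had an SD of 0.65 at 28 degree and 0.77 at 30 degree. Across the 5317 strains, which shared the pool, the array design and the amplification, the arrays had a Pearson correlation of 0.683. Agreement between the tags of a strain was lower, at 0.314 within the 28 degree array and 0.300 within the 30 degree array. The same tag compared between arrays gave 0.674 for the first tag and 0.645 for the second, and the difference between a strain's tags on one array had a correlation of 0.549 with that difference on the other. A tag's own ratio was thus more alike from array to array than the tags of a strain were within an array.

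**Figure D1:**
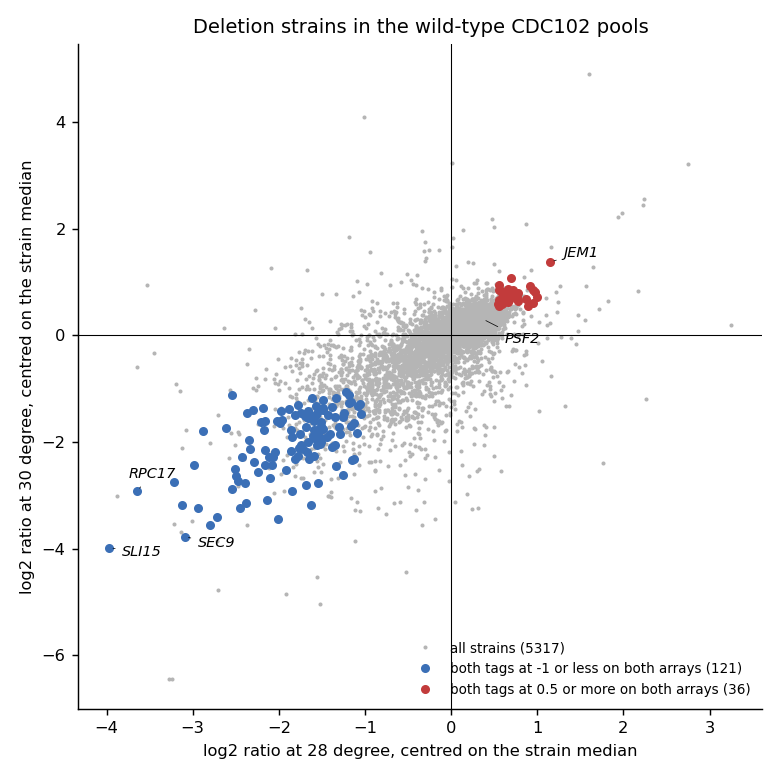
Each point is a deletion strain, with its centred log2 ratio at 28 degree on the x axis and at 30 degree on the y axis; blue points are the 121 strains at -1 or less in both tags on both arrays and red points the 36 at 0.5 or more. The blue points reach down to -3.97 and -3.99 (SLI15), and JEM1 is the red point farthest from 0.

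Deletions were therefore counted as far from the median when both tags on both arrays passed 1 on the log2 scale in the same direction, which 5113 strains could be scored for. By this size rule 121 strains, 2.37% of those scored, lay below the median and 1 strain, 0.0196%, lay above it. The 121 strains had means between -3.98 and -1.14 with a median of -1.80, and 99 of them had an SD under 0.5 between the arrays. An intercept fit in limma over both arrays called no strain after Benjamini-Hochberg adjustment over all 5317, 0.0% in either direction, and the adjusted values began at 0.0621. Without adjustment the same fit put 532 strains (10.0%) above and 1152 (21.7%) below the median at p under 0.05. Restricted to the 3703 strains whose tags differed by under 1 on both arrays, the fit called 104 higher strains (2.81%) and 262 lower ones (7.08%) at an adjusted p of 0.05. That set was defined by the agreement of tags on the same arrays, so its calls do not extend to the other strains and add nothing for strains picked by the size rule. With 1 residual degree of freedom, and with the temperatures serving as each other's replicate, the fit has little power, and a p that missed the threshold does not show that a strain sat at the median.

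Among the 121 strains past the size rule, the lowest means belonged to SLI15, SEC9, RPC17 and CDC28. Strains outside the rule, such as PSF3, also had means as low as these. Deletion of SLI15, which encodes the INCENP-like scaffold of the Aurora kinase complex at kinetochores, gave -5.47 and -2.47 in its tags at 28 degree, with -6.44 and -1.53 at 30 degree, a mean of -3.98 ± 0.11 (SE of the limma fit, 2 arrays). The first tag was the lower on both arrays, and both tags were beyond the size rule each time. That SE covers the spread between the array averages alone and not the split between the tags. The first tag minus the second was -3.00 at 28 degree and -4.91 at 30 degree, with 1 spot per tag. SEC9, a t-SNARE for fusion of secretory vesicles with the plasma membrane, gave -3.30 and -2.88 at 28 degree, with -3.12 and -4.44 at 30 degree. RPC17, a subunit of RNA polymerase III, gave -1.82 and -5.47 at 28 degree, with -1.40 and -4.44 at 30 degree. Deletion of CDC28, the cyclin-dependent kinase of the cell cycle, gave means of -2.80 at 28 degree and -3.56 at 30 degree. These strains were low on both arrays by far more than the arrays differed, and each had an adjusted p of 0.0621 in the limma fit.

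DOC1, a processivity subunit of the anaphase-promoting complex, was measured with 6 spots per tag and gave -1.78 and -4.48 at 28 degree, with -1.94 and -4.43 at 30 degree. Each tag of the DOC1 strain kept its own level from array to array, and the second tag was the lower each time. DBP2, a DEAD-box RNA helicase, lay at -2.94 and -3.24, and SPC98, a gamma-tubulin complex subunit of the spindle pole body, at -2.72 and -3.41. The 2 spots of SPC98's second tag had an SD of 1.15 at 28 degree and 1.37 at 30 degree. ARG7, the mitochondrial ornithine acetyltransferase of arginine synthesis, lay at -3.22 and -2.76. RNR1, the large subunit of ribonucleotide reductase, which makes the precursors of DNA synthesis, gave -1.87 and -3.04 in its tags at 28 degree, with -2.55 and -3.92 at 30 degree, again with 6 spots per tag. The repeat spots of RNR1's first tag had an SD of 0.92 and 1.11, while those of DOC1 had SDs between 0.07 and 0.40. The RNR1 strain lay below every other member of the checkpoint and DNA damage list. The remaining strains among the 15 lowest past the size rule were CDC40, a splicing factor, SGD1, KRI1 and ROK1, which act in ribosome biogenesis, YAH1, the mitochondrial ferredoxin of iron-sulfur cluster synthesis, and SPT5, a transcription elongation factor. Their means ran from -2.77 for CDC40 to -2.61 for ROK1. Of the 121 lower strains 108 had 1 spot per tag, and 16 had a spot with a ratio under 0.05, where the authors' rounding of ratios makes log2 values coarse.

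**Figure D2:**
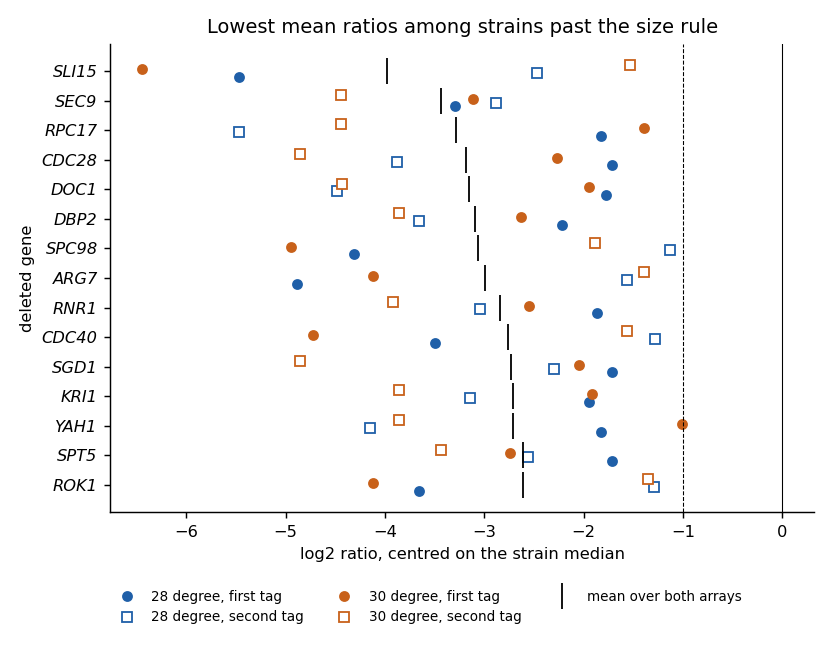
Centred log2 ratios of the 15 lowest strains past the size rule (rows) for each tag on each array, as filled circles (first tag) and open squares (second tag), blue for 28 degree and orange for 30 degree, with the mean as a black bar and the size rule of -1 dashed. SEC9 runs from -4.44 to -2.88 over its 4 values, while the tags of RPC17 stand at -1.82 and -5.47 at 28 degree and at -1.40 and -4.44 at 30 degree.

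The threshold cut through a continuous range. On the lower side 6 strains shared the value just inside it, -1.01 in their highest tag. One of them was ACS2, acetyl-CoA synthetase, with tag values of -1.26 and -1.01 at 28 degree, with -2.74 and -1.92 at 30 degree. Just outside was NPT1, a nicotinate phosphoribosyltransferase of NAD synthesis, at -0.98, -1.30, -1.11 and -1.27. On the upper side JEM1 was inside and LYS2, with a lowest tag value of 0.70, was the next strain.

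Many strains were low in only 1 of their tags. On both arrays 208 strains were at -1 or less in the first tag but not the second, and 139 in the second but not the first. The largest repeated disagreements belonged to TUP1, a general transcriptional repressor, with 2.64 and -4.79 at 28 degree, with 2.60 and -3.52 at 30 degree, and to IZH1, HXT2, RPL12B and MCM2. Deletion of MCM2, a subunit of the Mcm2-7 ring, gave -4.88 and 0.71 at 28 degree, with -4.86 and 0.49 at 30 degree. For these 5 strains the mean over tags describes neither tag, and they are not among the 121.

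Deletions of essential replication genes lay below the median as groups. Of the 12 measured strains of the GINS and CMG helicase list, 11 were below 0 on both arrays, against 39.2% of all strains, and PSF2 was the exception; the list's median was -0.90 and 0 of its 10 members with both tags scored passed the size rule. PSF3, another GINS subunit, gave -4.47 and -0.98 in its tags at 28 degree and -3.86 in its only measured tag at 30 degree. PSF1, also of GINS, gave -0.26 and -0.74 at 28 degree, with -1.80 and -1.19 at 30 degree. MCM7 of the Mcm2-7 ring gave -2.08 and -1.47 at 28 degree but -3.44 and 2.83 at 30 degree. PSF3 and PSF1, the GINS subunits named here beside PSF2, were thus lower than PSF2 itself in every tag measured.

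Origin recognition and initiation genes had a median of -0.83 over 13 strains, with 1 past the size rule. That strain was ORC5, a subunit of the origin recognition complex, at -1.47 and -2.22 at 28 degree, with -2.12 and -1.69 at 30 degree. ORC1 and ORC3 had lower means, -2.10 and -2.07, but each had a tag above -1 at 28 degree. CDC6, which loads Mcm2-7 at origins, gave -0.37 at 28 degree and -2.10 at 30 degree. Its difference between the arrays was larger than its distance from the median at 28 degree.

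The list of DNA polymerases, primase, clamp and RPA had a median of -0.90 over 19 strains. Of the 18 with both tags scored 4 were past the size rule, against 2.37% of all strains. POL30, which encodes the sliding clamp PCNA, lay at -1.59 and -1.93. RFC2, a subunit of the clamp loader, lay at -1.59 and -2.26, and CDC9, the DNA ligase of Okazaki fragments, at -1.45 and -1.90. DNA2, a nuclease and helicase that trims Okazaki fragment flaps, lay at -1.26 and -2.63. All 4 were lower at 30 degree than at 28 degree. The low tail of all strains was also longer at 30 degree, with 742 strains at -1 or less against 608.

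Deletions of non-essential genes of the replication fork lay nearer the median strain. The list's median was -0.08 over 19 strains, between -0.57 and 0.29, and 0 passed the size rule. RNH203, a subunit of ribonuclease H2, lay at -0.71 and -0.44, and CHL1, a helicase of sister chromatid cohesion, at -0.77 and -0.36, each with 1 tag close to 0. Deletion of TOP1, topoisomerase I, gave -0.28 and -0.54, and deletion of SRS2, a DNA helicase, gave 0.36 and 0.23. None of the 19 strains had a mean at or below -1, where 12.0% of all strains lay.

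Checkpoint and repair deletions were mostly near the median. In the S-phase and damage checkpoint list the median was 0.09 over 16 strains, and RNR1 and MEC1 passed the size rule. MEC1, the ATR-like checkpoint kinase, an essential gene, gave -1.42 and -1.56 at 28 degree, with -1.16 and -1.27 at 30 degree, a mean of -1.35 ± 0.13. Homologous recombination strains had a median of 0.11, with RAD57 lowest at -1.01 and -1.56, and RAD52, a strand-annealing protein, at -0.57 and -0.12. Repeat spots of RAD52's second tag had an SD of 2.61 at 28 degree. The nuclease and dissolution list had a median of 0.10, and its lowest strain was TOP3, the topoisomerase partner of Sgs1, at -0.84 and -1.16. Its other named members YEN1, SLX1 and SGS1 had means between 0.24 and 0.39. Post-replication repair strains had a median of -0.14, and the lowest mean of the list was -1.37. RAD6 and RAD18, which ubiquitylate PCNA, had means of -0.81 and -0.93, and RAD30, a translesion polymerase, had a mean of 0.50. The second tag of RAD18 gave 0.08 at 28 degree and -1.86 at 30 degree, where its repeat spots had an SD of 1.45. Excision and mismatch repair strains had a median of 0.24 and none beyond 0.52, the value of RAD14, a damage-recognition factor.

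The list of the Rtt101 ligase, H3K56 acetylation and histone chaperones had a median of -0.02 over 16 strains, 6 of them below and 5 above 0 on both arrays, with 0 past the size rule. Of its 4 members farthest from the median, 3 were low in 1 tag and 1 was high. RLF2, the large subunit of chromatin assembly factor 1, gave -2.96 and -0.04 at 28 degree, with -3.03 and -0.18 at 30 degree. ASF1, an H3-H4 chaperone, gave -1.15 and -0.17 at 28 degree, with -1.54 and 0.01 at 30 degree. RTT109, a histone H3 acetyltransferase, showed the same split, at -1.26 and 0.06 and at -1.58 and 0.63. HIR2, a subunit of a nucleosome assembly complex, lay at 0.38 and 0.39, also with unequal tags.

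Chromosome segregation genes split between essential and non-essential. The DASH complex, which couples kinetochores to microtubules, had a median of -0.54 over 7 strains, and cohesin and condensin had a median of -0.61 over 13, 12 of them below 0 on both arrays. Spindle checkpoint deletions lay on the other side, with a median of 0.30 and 6 of 7 strains above 0 on both arrays, against 39.2% of all strains. MAD3, a subunit of the mitotic checkpoint complex, gave 0.49 and 1.21 in its tags at 28 degree, with 0.59 and 1.60 at 30 degree. BUB2, which restrains mitotic exit, gave 0.40 and 1.26 at 28 degree, with 0.21 and 1.13 at 30 degree. In both strains the second tag was the higher on both arrays. Inner kinetochore and plasmid partition deletions had a median of 0.02 over 11 strains, none of them past 0.5 in both tags on both arrays.

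Across all 13 lists of mostly essential genes the shift below the median was general. Their 363 strains had a median of -0.86, and 283 of them, 78.0%, were below 0 on both arrays. Of the 332 with both tags scored, 32 passed the size rule on the lower side, 9.64% against 2.37% of all strains, and 0 lay at 0.5 or more in both tags on both arrays. The 680 strains of the other lists had a median of -0.04, and 1.52% of those scored passed the lower size rule. With the cdc102-1 plasmid the essential lists had a median of -0.90, close to their median with CDC102. Of the 121 lower strains, 32 belonged to these lists, 10 to other lists alone and 79 to no list.

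Secretory pathway and splicing genes held the most members past the size rule. Of the 47 secretory strains with both tags scored 12 passed, against 2.37% of all strains, with a list median of -1.22, the lowest of the 45 lists. Besides SEC9 they included SEC39, an ER tethering factor, at -2.51 on both arrays, YPT1, the Rab GTPase of ER-to-Golgi traffic, at -2.10 and -2.68, and SEC2, the exchange factor for the Rab Sec4, at -2.61 and -1.74. Of the 37 splicing strains scored 10 passed, with a median of -1.10. HSH155, PRP21 and PRP9, which act in the U2 particle that marks the branch site, had means of -2.16, -1.98 and -1.90, and SME1, an Sm core protein, had a mean of -1.92. In the secretory list 41 of 50 strains were below 0 on both arrays, and in the splicing list 30 of 39, against 39.2% of all strains.

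Other essential machinery had medians below 0 with fewer strains past the size rule, counted here among strains with both tags scored. Of all strains scored 2.37% passed it on the lower side, and counts of 0 or 1 per list are too small to tell from that share. Proteasome strains had a median of -1.01 and 1 of 28 past the rule, PRE8, a core subunit, at -1.22 and -1.07. RPT2 and PRE7, of the proteasome base and core, had lower means of -2.18 and -2.04, but each had a tag above -1 at 28 degree. Mitochondrial protein import strains had a median of -0.91 and 0 of 20 past the rule. Of these MGE1, a cofactor of the mitochondrial Hsp70, had the lowest mean at -1.85, followed by HSP60, the matrix chaperonin, at -1.57. General transcription strains had a median of -0.77 and 3 of 48 past the rule, which were RPC17, TAF11, a TFIID subunit, at -2.50 and -2.64, and TFC7, a TFIIIC subunit, at -2.02 and -1.60. The second tag of TAF11 had 2 spots that disagreed widely, with an SD of 2.49 at 28 degree and 3.66 at 30 degree. tRNA synthetase strains had a median of -0.86 with 0 of 17 past the rule, led by ILS1 and TYS1, for isoleucine and tyrosine, at means of -2.20 and -2.10. Strains of the ribosome biogenesis list had a median of -0.78 with 0 of 52 past the rule. SGD1, KRI1 and ROK1, named above as past the rule, are not on that list, so the count holds for the listed genes only. Translation factor strains had a median of -0.72 and 1 of 23 past the rule, YEF3, an elongation factor, at -2.30 and -1.41.

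**Figure D3:**
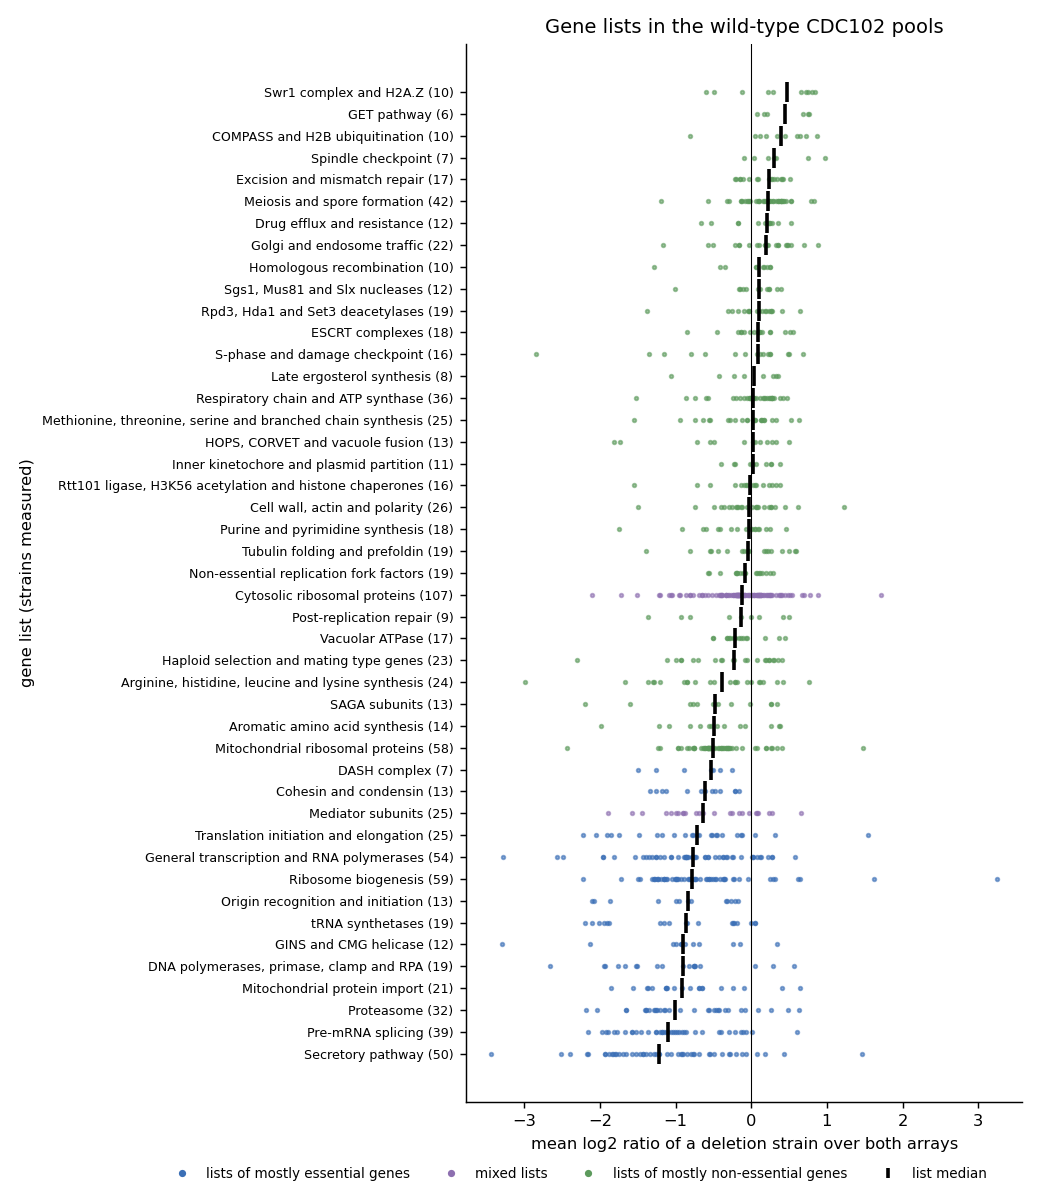
Each row is a gene list with the number of strains measured, each dot the mean centred log2 ratio of a strain over both wild-type arrays, and each black bar the list median; colours mark lists of mostly essential, mixed and mostly non-essential genes. Medians run from -1.22 for the secretory pathway to 0.47 for the Swr1 complex.

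Low ratios were not limited to essential genes. STE7, the MAP kinase kinase of the mating pathway, gave -1.77 and -2.56 in its tags at 28 degree, with -1.74 and -3.12 at 30 degree, a mean of -2.30 ± 0.13. It was the only member of the haploid selection and mating list past the size rule; the list's 23 strains had a median of -0.23. SIR3 and SIR4, which silence the spare mating-type loci, had means of -0.93 and -0.99, and in SIR4 a single tag carried the low value. Strains of the meiosis and spore formation list, genes used before or during sporulation, had a median of 0.22, and 30 of 42 lay above 0 on both arrays, against 39.2% of all strains. UME6, a regulator of early meiotic genes, was the lowest of them at -0.86 and -1.53, and SPO73, which acts in spore wall formation, was past 0.5 in all 4 tag values with a mean of 0.79 ± 0.11.

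Amino acid synthesis strains varied by pathway. The arginine, histidine, leucine and lysine list had a median of -0.39 over 24 strains, with ARG7 past the lower size rule. LEU1, isopropylmalate isomerase, lay at -0.96 and -2.38, HIS4, a multifunctional enzyme of histidine synthesis, at -1.53 and -1.07, and HIS7, imidazole glycerol phosphate synthase, at -0.66 and -2.08. LYS2, aminoadipate reductase of lysine synthesis, lay on the other side, at 0.70 and 0.70 in its tags at 28 degree, with 0.88 and 0.75 at 30 degree. The aromatic list had a median of -0.49 over 14 strains. Its member TRP2, anthranilate synthase, passed the size rule with -2.08 and -1.22 at 28 degree, with -2.86 and -1.80 at 30 degree. The methionine, threonine, serine and branched chain list had a median of 0.02, although ILV3, ILV6, ILV2 and ILV1 of isoleucine and valine synthesis had means between -1.55 and -0.64. In ILV3, ILV6 and ILV1 a single tag carried most of the low value, ILV3 with -3.47 and -0.11, ILV6 with 0.37 and -2.30 and ILV1 with -1.82 and -0.04 at 28 degree. Of the purine and pyrimidine list, with a median of -0.03, ADE3, which supplies one-carbon units, passed the size rule at -1.60 and -1.88.

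Among chromatin and transcription complexes, the SAGA and Mediator lists had medians below 0 and the Swr1 and COMPASS lists medians above it. SAGA strains had a median of -0.47 over 13. UBP8, the SAGA deubiquitylase of H2B, gave -2.67 and -1.45 at 28 degree, with -3.13 and -1.44 at 30 degree, and HFI1, a SAGA core subunit, gave -1.06 and -2.27 at 28 degree, with -1.62 and -1.46 at 30 degree, both with 6 spots per tag. For UBP8 3 of these were measured in each tag at 30 degree, and its repeat spots had an SD of up to 1.47. Mediator strains had a median of -0.64 over 25, with MED11 at -1.75 and -2.05 and NUT2 at -1.35 and -1.54 past the size rule. The Swr1 complex, which deposits the histone variant H2A.Z, and H2A.Z itself had a median of 0.47 over 10 strains. Of these 6 were above 0 and 2 below 0 on both arrays, against 39.2% of all strains in either direction. The lowest mean of the list was -0.59. HTZ1, the H2A.Z gene, lay at 0.72 and 0.90, SWC5 at 0.56 and 0.94, SWR1 at 0.90 and 0.54 and ARP6 at 1.23 and 0.45. Of the list SWC5 and SWR1 alone were at 0.5 or more in both tags on both arrays. The COMPASS and H2B ubiquitination list had a median of 0.39 over 10 strains, with SWD3, a COMPASS core subunit, at 0.76 and 0.68, SHG1 at 0.88 and 0.85, and LGE1, a cofactor of H2B ubiquitination, at 0.67 and 0.62. In the COMPASS list SWD3 alone was at 0.5 or more in both tags on both arrays. SHG1 was outside the set of strains whose tags differed by under 1 on both arrays. RAD6, the H2B ubiquitin-conjugating enzyme and the lowest of that list, lay at -0.95 and -0.68. None of these strains above the median reached 1 in all 4 tag values.

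Of 58 mitochondrial ribosomal protein deletions 46 were below 0 on both arrays, against 39.2% of all strains, with a median of -0.51 and 0 past the size rule. MRPL36 had the lowest mean at -2.43, carried by its second tag, and MRPS5 gave -1.18 and -1.29. Respiratory chain and ATP synthase strains had a median of 0.03 over 36, 9 of them below 0 on both arrays. Cytosolic ribosomal protein strains had a median of -0.12 over 107, with 0 past the size rule. Whether the difference in median between these lists exceeds that of other lists was not tested.

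Above the median only JEM1 passed the size rule, although 23 strains (0.433%) had a mean of 1 or more. JEM1 encodes a DnaJ-like chaperone of the ER lumen that takes part in nuclear fusion during mating. At 28 degree its tags stood at 1.22 and 1.09, and at 30 degree they stood at 1.46 and 1.29, with a mean of 1.27 ± 0.12, with an adjusted p of 0.0621 in the limma fit and 1 spot per tag. Without centring its mean was 1.08 and no strain passed the size rule above 0. The lowest tag value of JEM1 was 1.09. The next strain among those high in both tags was TPO5, a polyamine transporter, with a mean of 0.92 and tag values from 0.56 to 1.29, which overlap those of JEM1. The gene lies 103 bases from PSF2 on chromosome X in the R64 assembly, with no other gene of the array between them. By the same rule 68 strains (1.37%) were high in the cdc102-1 pools, where the JEM1 strain lay at 1.08 and 0.60. The limma plasmid term for JEM1 had an adjusted p of 0.69.

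At a size of 0.5, 36 strains (0.704%) lay above the median in both tags on both arrays and 359 (7.02%) below it; the higher ones named from here on were chosen after their values were seen. Their means ran from 0.55 to 0.92 apart from JEM1, with a median of 0.72, and the 4 tag values of a strain spanned at most 0.78. Some of the 36 act in membrane traffic, a grouping made by reading their names and not tested. APM1 and APS1, subunits of the AP-1 clathrin adaptor, lay at 0.95 and 0.86 and at 0.73 and 0.75. PEP8, a retromer subunit that returns receptors from endosomes to the Golgi, lay at 0.70 and 1.07, SYS1, a Golgi membrane protein that recruits the GTPase Arl3, at 0.58 and 0.83, and VPS38, a subunit of a phosphatidylinositol kinase complex, at 0.59 on both. Of the 22 strains in the Golgi and endosome list, 12 lay above 0 and 6 below 0 on both arrays, against 39.2% of all strains in either direction, and the list's median was 0.20. Its members RIC1 and ARL3 lay at -1.08 and -1.26 and at -0.68 and -0.47, and the tags of ARL3 had opposite signs on both arrays.

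Deletions of the GET pathway, which inserts tail-anchored proteins into the ER membrane, were all above 0. GET1 and GET2, the membrane receptor, lay at 0.77 and 0.74 and at 0.66 and 0.87, and GET3, the ATPase that carries the substrate, at 0.67 and 0.70. GET4, which acts upstream of GET3, lay at 0.26 and 0.16. All 6 strains of the list were above 0 on both arrays, against 39.2% of all strains. Their median was 0.45, and GET1 and GET2 passed 0.5 in every tag value.

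Further higher strains had roles in signalling, protein turnover and metabolism. RIM21 and RIM20, of the alkaline pH signalling pathway, lay at 0.76 and 0.71 and at 0.67 and 0.66. CUE1 and DSK2, which act in ER-associated degradation and as a ubiquitin shuttle, lay at 0.64 and 0.77 and at 0.59 and 0.80. EMC1, of the ER membrane complex, lay at 0.66 and 0.63, and STE24, a CAAX protease that matures a-factor, at 0.75 and 0.78. TOR1, the growth-regulating kinase, BCK1, a MAP kinase kinase kinase of cell integrity, and PDE2, the high-affinity cAMP phosphodiesterase, had means of 0.70, 0.62 and 0.71. TPO5 lay at 0.91 and 0.93, and ECI1, a peroxisomal enzyme of fatty acid oxidation, at 0.99 and 0.71. Paralog genes of ribosomal proteins were represented by RPL7B and RPL26A, at means of 0.77 and 0.70.

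All 36 higher strains were also above 0 on both cdc102-1 arrays, where 37.3% of all strains were, and 23 of them had a higher mean there. Their median was 1.07 in the cdc102-1 pools against 0.72 in the wild-type pools. All strains were spread more widely on the cdc102-1 arrays, with an SD of 0.73 and 1.03 against 0.65 and 0.77. Neither the medians nor the thresholds were scaled to that spread. By the same rule at 0.5, 222 strains (4.48% of those scored) passed in the cdc102-1 pools, and 25 strains passed in both, which is 69.4% of the 36 and 11.3% of the 222. GET1 lay at 3.15 and 4.20 with cdc102-1, and GET2 at 3.40 and 3.51. APM1 lay at 1.75 and 2.56, STE24 at 1.45 and 2.83 and RIM20 at 1.49 and 2.37. A lower mean with cdc102-1 was seen for 13 of the 36, and 5 of these lay below each of their wild-type values: JEM1, LYS2, MRX21, PKH2 and BPH1. LYS2 and BPH1 lay at 0.11 and 0.31 and at 0.03 and 0.14 with cdc102-1. The 36 were selected by high values with CDC102, so a lower value with cdc102-1 is no support for a plasmid difference. The share of all strains below each of their wild-type values was not counted. Over the 5288 strains measured on all 4 arrays, the limma plasmid term passed an adjusted p of 0.05 for 0 strains (0.0%), and at an unadjusted p under 0.05 for 283 strains higher with cdc102-1 (5.35%) and 179 lower (3.39%). The adjusted p was 0.55 for both GET1 and GET2.

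**Figure D4:**
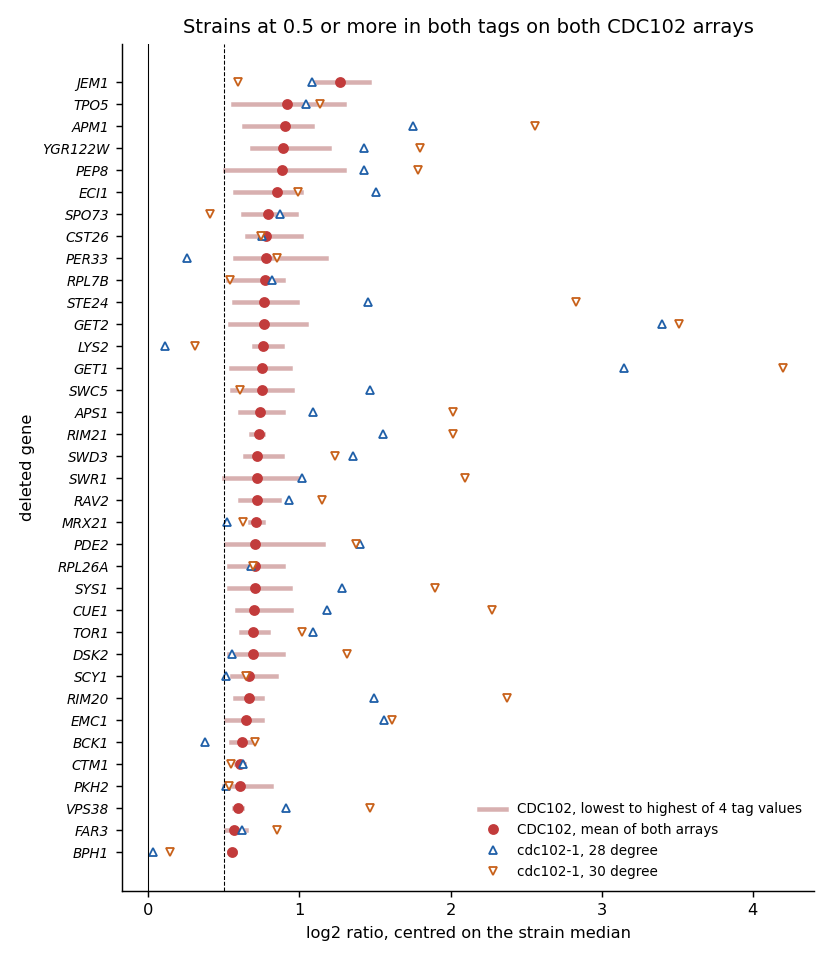
Centred log2 ratios of the 36 strains (rows) at 0.5 or more in both tags on both wild-type CDC102 arrays; red circles are the mean of both arrays, pale bars run from the lowest to the highest of the 4 tag values, and triangles are the strain's values on the 28 degree (upward) and 30 degree (downward) cdc102-1 arrays. The GET1 and GET2 triangles lie above 3, while the JEM1 triangles lie at 1.08 and 0.60.

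The lower strains were largely low in the cdc102-1 pools too. Of the 121, 117 were below 0 on both cdc102-1 arrays, against 37.2% of all strains, and 89 at -1 or less on both, against 8.38%, and their median there was -1.97. By the size rule 162 strains (3.27%) were low in the cdc102-1 pools, and 43 were low in both, which is 35.5% of the 121 and 26.5% of the 162. The 4 strains not below 0 on both cdc102-1 arrays were ABF1, an origin- and promoter-binding factor, YEF3, SNU114, a splicing GTPase, and PRE8. YEF3 lay at -2.30 and -1.41 with CDC102 and at 0.04 and 0.15 with cdc102-1. TRP2 lay at -1.65 and -2.33 with CDC102 and at -0.06 and -0.23 with cdc102-1, and RFC2 at -1.59 and -2.26 against -0.25 and -0.63. For these 3 strains the values of the plasmids did not overlap, and the limma plasmid term gave unadjusted p of 0.0051, 0.0034 and 0.0045 with an adjusted p of 0.55 each. The strains were taken from the 121, which were selected by low values with CDC102, and the plasmid term uses those same values. Neither the p nor the lack of overlap is therefore support for a plasmid difference.

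Strains deleted for genes near PSF2 lay on both sides of the median in the wild-type pools. The 87 measured strains within 100 kb had a median of 0.03. Those within 10 kb, 10 strains apart from PSF2, had a median of -0.25, with 4 above 0 on both arrays. On the side of JEM1 the next strains were SMC3, a cohesin subunit, at -1.32 and -1.03, and NET1, a nucleolar regulator of mitotic exit, at -1.07 and -0.59. On the other side ARG2, the first enzyme of ornithine synthesis, lay at -0.92 and -0.85, YJL070C at 0.54 and 0.73, and UTP18, a ribosome biogenesis factor, at -0.35 and -0.37. The tags of UTP18 had opposite signs on both arrays, and those of NET1 at 30 degree. Medians of whole chromosomes lay between -0.15 for chromosome I and 0.06 for chromosome XVI. Chromosome X held 6 of the 36 higher strains, 1.9% of its 315 scored strains, and 3 of these lay within 100 kb of PSF2, 3.45% of the 87 there, against 0.704% of all strains. These shares rest on few strains, JEM1 among them, and were not tested.

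**Figure D5:**
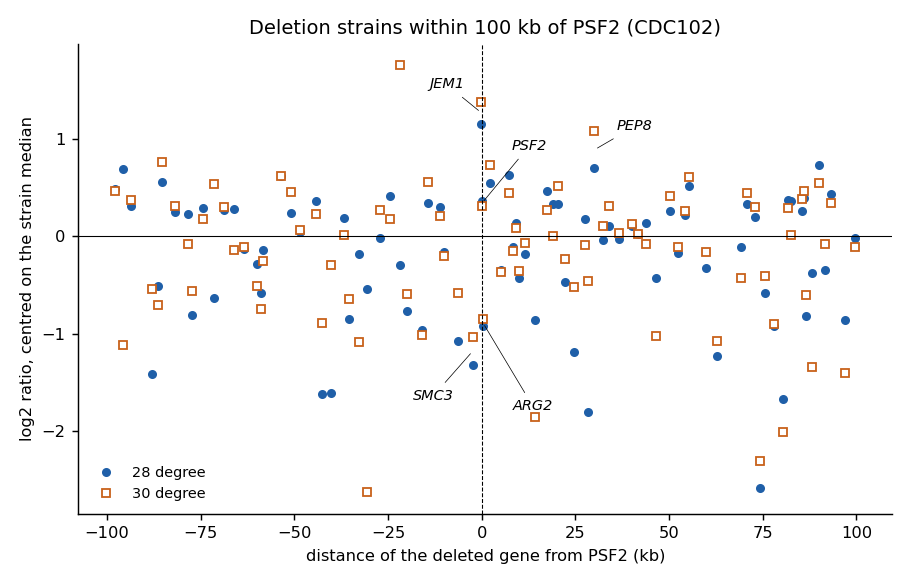
Centred log2 ratio of each deletion strain within 100 kb of PSF2 against the distance of the deleted gene from PSF2 in kb, with blue circles for 28 degree and orange squares for 30 degree. JEM1 lies at 1.15 and 1.38 beside PSF2 at 0.37 and 0.31, and strains on either side fall on both sides of 0.

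A few strains differed in sign between the temperatures. Below -1 at 28 degree and above 1 at 30 degree were 5 strains, and 4 strains were the reverse. Deletion of RPS3, a small-subunit ribosomal protein, gave -1.71 and -2.47 in its tags at 28 degree, with 0.84 and 1.67 at 30 degree, and NEO1, a phospholipid flippase, had means of 1.77 and -2.39. With 1 array per temperature these differences have no replicate and were not tested.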

How the data were processed

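Tags were PCR products of genomic DNA, per the labels (the molecule field names RNA). They were labelled with Cy5 (no Nat) or Cy3 (Nat), hybridised to a Hopkins tag array, scanned on a GenePix 4000B and read with GenePix 5.1. The deposited values are log2 ratios per spot. The numerator, background correction and normalization used by the authors were not given in the sources used here. A stand-in ratio of 1000000 was left out. Of 22575 spots, 18794 had 1 gene symbol in the platform annotation and 3781 had none; 5321 of 5325 genes matched the R64 gene table, which gave names, chromosomes and distances. Spots 10971 apart carry the same gene and were taken as its tags; which block holds uptags is not known.

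Spots were averaged per strain, and the median strain of each array was set to 0 (-0.18 at 28 degree, -0.20 at 30 degree removed). The median SD between repeat spots of a tag was 0.0809. limma 3.58.1 (R 4.3.3) fitted an intercept over both arrays, and plasmid plus temperature over all 4, with Benjamini-Hochberg adjustment at 0.05. The fit was tested on simulated data. Lists were described by counts and medians. Named strains were the 15 lowest past the size rule, PSF2 and its 3 nearest measured strains on each side, up to 4 members per list, and strains at the threshold, in temperature difference and in tag disagreement. Members and lists were chosen with earlier results of these data known. Alternatives were other centring, spot averaging, tags, sizes, priors, arrays and strain sets. No tag sequences were used here.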

Additional observations from a re-analysis of the deposited data

Results flagged for a closer look

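Of the 159 strains named above, 5 lay on opposite sides of the median with the different plasmids, on both arrays each. The share of all strains that do so was not counted. The means with CDC102 were -0.41 for TOP1, -0.35 for RAD52, -0.71 for ASF1, -1.85 for YEF3 and -1.17 for RIC1. With cdc102-1 all 5 lay above the median, YEF3 at 0.04 and 0.15 and ASF1 at 0.03 and 0.13. The limma plasmid term did not pass an adjusted p of 0.05 for any of them, with unadjusted p of 0.065, 0.14, 0.026, 0.0051 and 0.0054 in the order given. As the values that flagged these strains also enter that term, its p is no support for a plasmid difference. In TOP1 and ASF1 the low value with CDC102 was carried by the first tag, and in RIC1 by the second.

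The RPS3 strain moved from below the median at 28 degree to above it at 30 degree in both tags, a difference of 3.35 on the log2 scale. With 1 array per temperature this difference was not tested.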

How the results depend on the processing

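The ratios were 0.18 and 0.20 lower over all strains before centring, and without centring limma called 6 strains higher and 386 lower where it called 0 and 0 after it; with the first tag alone it called 2 lower strains. Among strains whose tags differed by under 1 it called 104 higher and 262 lower; this set holds fewer strains and a smaller spread. Quantile normalization, the median over spots, equal tag weights, the second tag, a robust prior, all 4 arrays, leaving out strains near PSF2, and the settings added after the data were seen (tags centred separately, no ratios under 0.05) left 0 calls. The size rule gave 36 higher and 359 lower strains at 0.5, 0 and 22 at 1.5, 0 and 2 at 2, 0 and 199 without centring, and 0 and 13 among the 880 strains with 2 or more measured spots per tag. Each array alone gave 5 to 8 higher and 281 to 307 lower strains. The median of the essential lists was -1.05 without centring, -0.97 with the first tag, and from -0.85 to -0.78 on each array alone. Under these settings 16 of 159 named strains and 19 of 45 list medians changed sign, mostly with a single tag, without centring or on a single array. None of the 65 named strains past the size rule did. That rule already requires both tags on both arrays to lie far from 0 on the same side. It thus largely fixed this outcome, which is no sign of robustness. No paired analysis was possible because each group holds 1 array, so that no replicate numbers pair samples; the plasmid fit matched the arrays by temperature instead. The number of arrays limits precision, and signal over background is unknown.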

Other observations

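Some of the 79 lower strains outside every list are grouped here by process. The groups were read from the strains' names after their values were seen and were not tested. Only strains past the size rule are named, and other members of these processes were not counted. Subunits of RNase P and RNase MRP, which process tRNA and rRNA precursors, were low, with POP1 at -1.51 and -1.70, POP6 at -1.82 and -1.49 and RPP1 at -1.88 and -1.38. CBF5, the pseudouridine synthase of H/ACA particles, lay at -2.42 and -2.28, and NAF1, an assembly factor of those particles, at -1.52 and -2.03. Subunits of the Ccr4-Not complex of mRNA decay, CDC39, CDC36 and NOT5, had means of -1.61, -1.39 and -1.20, and NOT5 was measured with 6 spots per tag. Both SMT3, the SUMO gene, and UBA2, a subunit of the enzyme that activates SUMO, were low, at -1.70 and -1.51 and at -2.04 and -2.19.

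Membrane lipid and sugar synthesis gave another set of low strains. ERG12, mevalonate kinase, IDI1, isopentenyl diphosphate isomerase, and ERG1, squalene epoxidase, had means of -2.39, -1.93 and -1.54. BTS1, geranylgeranyl diphosphate synthase, a non-essential gene, lay at -1.38 and -1.34. The glycosylphosphatidylinositol anchor genes SPT14, GPI12 and GPI15 had means of -1.62, -1.70 and -1.17. STT3, the catalytic subunit of oligosaccharyltransferase, and ALG7, the enzyme that starts synthesis of the N-glycan precursor, had means of -2.16 and -2.40. In iron-sulfur cluster synthesis, ISD11, ATM1 and CIA2 had means of -1.51, -1.43 and -1.55, beside YAH1 at -2.71. All of these strains were below 0 on both cdc102-1 arrays as well. So were 117 of the 121 lower strains, so this does not set them apart.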
